A study of Mus musculus with 15 samples.

Results

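Formins and Spire proteins start and lengthen unbranched actin filaments. The genes described here are 6 formin genes (Diaph1, Diaph2, Diaph3, Fmn1, Fmn2 and Daam1) and the Spire genes Spire1 and Spire2. They were taken by name from a table of 53023 genes, and all 8 were found, each on a single row. The study asked what happens to the transcriptome of mouse 2-cell embryos when filamentous actin in the nucleus is disturbed. Levels came from 6 RNA-seq libraries, each made from a pool of 5 embryos of the ICR strain at 32 hours after insemination, and the other 9 libraries of the series were not analysed here.

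The 6 libraries form 3 pairs, called A, B and C, with the replicate number of the title after the letter (A1, A2 and so on). What each pair received is uncertain, because the title of a library and its annotated mRNA contradict each other. By title, A is Wt, B is R62D and C is a non-injected control. By annotation, A had no injection, B received mRNA for actinWT-HA-NLS, which is normal actin carrying an HA tag and a signal for import into the nucleus, and C received mRNA for actinR62D-HA-NLS, the same protein with the mutation R62D. Actin with R62D does not polymerise. Injections were made at 2 hours after insemination. Each comparison below is therefore given by pair, with both readings. The labels do not state whether the pools of a pair derive from different matings. A p-value therefore sets a difference only against the spread between such pools, estimated from all 6 libraries with information shared across genes.

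A formin holds the growing end of a filament with its FH2 domains and feeds it actin bound to profilin. Diaphanous formins (the Diaph genes) and Daam1 are held inactive by contact between their own ends until a signal opens them. Spire proteins line up actin monomers on WH2 domains and pass the new filament to formins of the Fmn group. In mouse oocytes Fmn2 works with Spire1 and Spire2 to build the cytoplasmic actin mesh that moves the spindle and allows the polar body to form. The embryo at the 2-cell stage still carries RNA from the oocyte beside its own first transcripts.

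Assigned reads numbered 907210 to 1555431 per library. Principal component 1 (28.7% of the variance over 13443 genes) placed A2 and C2 (scores 49.3 and 49.7) away from the other 4 libraries (-32.7 to -11.1). In the list of 9 oocyte and maternal genes all 9 had reads, and the median level of the 8 that passed the filter was -0.57 in A2 and -0.50 in C2 relative to the 6-library mean, on the log2 scale. It was 0.11 to 0.51 in the other libraries. All 8 of the 2-cell-stage genes examined had reads, and their summed level was 948 to 2802 FPKM. Among markers of other cells, the 12 cumulus and granulosa markers gave 1 to 11 reads per library in sum (0.523 to 3.44 FPKM). Of these 6, among them Fshr, Foxl2 and Lhcgr, were at 0 in all 6 libraries. Only Tnfaip6 passed the filter (mean 1.35 FPKM), with 0 and 1 reads in A, 5 and 5 in B, and 4 and 2 in C. The 8 sperm and spermatid markers had 0 to 1.5 reads (at most 1.81 FPKM), with Prm1 and Acr at 0. The 7 blood markers summed to 81.6 and 14.2 FPKM in A, 76.9 and 40.4 FPKM in B, and 30.3 and 9.11 FPKM in C (6.5 to 73 reads). Nearly all of this came from the alpha-globin genes, of which Hba-a1 averaged 22.4 FPKM, while Hbb-bs and Hbb-bt were at 0. In pools like these, fewer cells and less RNA per cell cannot be told apart.

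Among the 8 genes 4 were clearly present and 4 lay at or near the detection limit. Diaph3, Fmn2, Daam1 and Spire1 each had 339 to 496 reads over the 6 libraries. Diaph1 had 34 reads, Diaph2 13, Fmn1 8 and Spire2 1. Every one of the 48 values was a whole number of reads (tolerance 0.001 read). FPKM is a fragment count scaled to gene length and to the size of the library. It lets levels be compared between these genes only roughly, because the deposited gene length may differ from that of the transcripts present. By mean level the order was Diaph3 (12.5 FPKM), Fmn2 (7.49), Daam1 (7.19), Spire1 (6.11), Diaph1 (0.734), Diaph2 (0.176), Fmn1 (0.0825) and Spire2 (0.0427). Diaph3 was above Fmn2 in 6 of 6 libraries, although their ranges overlapped. Fmn2 was above Daam1 in 3 of 6 libraries and Daam1 above Spire1 in 3 of 6, so these neighbours did not differ beyond their spread. Spire1 was above Diaph1 in 6 of 6, with ranges that did not overlap. The 4 lowest genes overlapped each other.

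**Figure D1:**
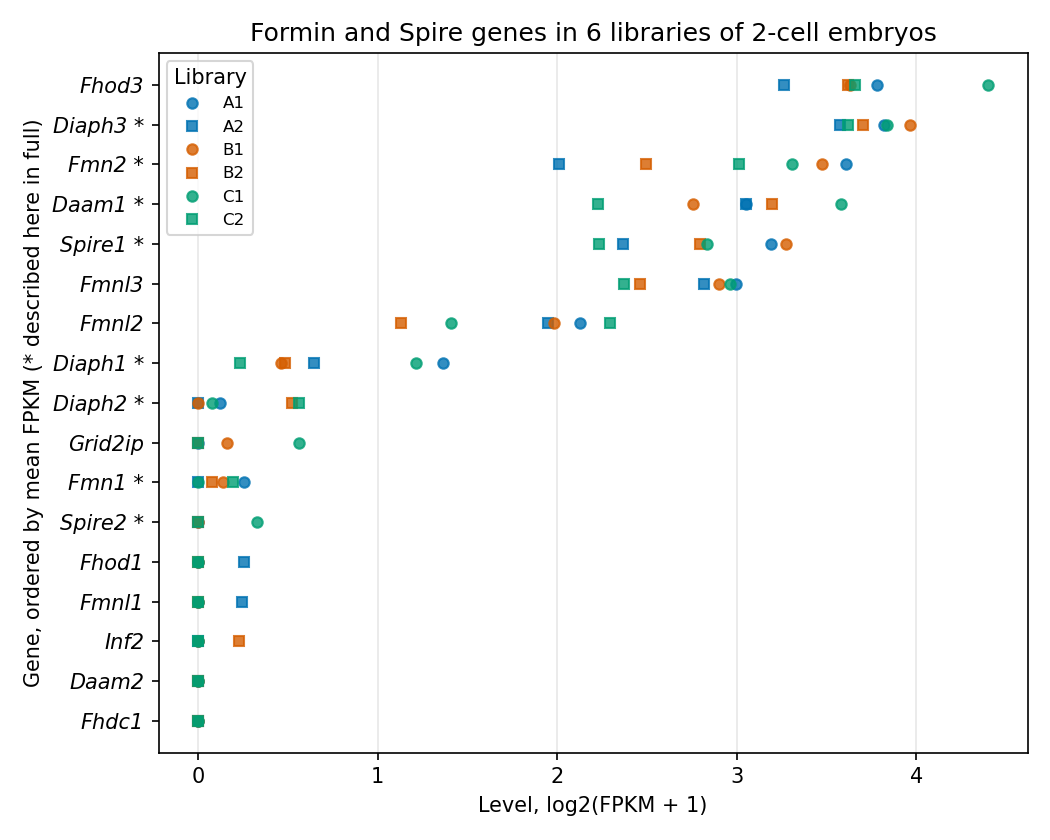
Level of each formin and Spire gene in the 6 libraries, on the log2(FPKM + 1) scale, ordered by mean FPKM, with an asterisk on the 8 genes described in full. Points are single libraries, circles for replicate 1 and squares for replicate 2. Fhod3, Diaph3, Fmn2, Daam1, Spire1, Fmnl3 and Fmnl2 have higher means than the other 10 genes, with overlap between Fmnl2 and Diaph1.

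Diaph3 encodes a diaphanous formin, known as mDia2, that acts in cytokinesis. The gene (ENSMUSG00000022021.14) lies on the minus strand of chromosome 14, 86655367 to 87141235 in mm10. Pair A gave 13.1 FPKM (A1) and 10.9 FPKM (A2), pair B 14.6 FPKM (B1) and 12.0 FPKM (B2), and pair C 13.3 FPKM (C1) and 11.3 FPKM (C2). These values rested on 57 to 115 reads. It was the steadiest of the 4 expressed genes, with a highest library only 1.34 times the lowest, and replicate 1 slightly above replicate 2 in each pair. The ratio of replicate 1 to replicate 2 was 1.20, 1.22 and 1.18 in A, B and C, and each of the 95% counting intervals held 1 (0.851 to 1.69, 0.899 to 1.65 and 0.849 to 1.65, exact binomial, counting error only). Its mean ranked 4270 of the 26934 genes with any reads.

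Fmn2, the formin required for spindle positioning in the oocyte, was the most variable of the expressed genes. The gene (ENSMUSG00000028354.13) lies on the plus strand of chromosome 1, 174501825 to 174822729. Its level was 11.2 FPKM in A1 against 3.03 FPKM in A2, 10.1 FPKM in B1 against 4.63 FPKM in B2, and 8.88 FPKM in C1 against 7.06 FPKM in C2. The first libraries of A and B were high and the second low, while both C libraries lay between. In reads this was 89 and 27 in A, 102 and 44 in B, and 110 and 51 in C. The ratio of replicate 1 to replicate 2 was 3.68 in A (95% counting interval 2.37 to 5.90) and 2.19 in B (1.52 to 3.19). In C it was 1.26 (0.895 to 1.79). The intervals for A and B did not hold 1, but they take reads as independent molecules and are too narrow where PCR made copies.

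Daam1, a formin of the noncanonical Wnt pathway, had a different profile across libraries. The gene (ENSMUSG00000034574.10) lies on the plus strand of chromosome 12, 71831078 to 71992333. Both A libraries held 7.29 FPKM, B1 held 5.76 FPKM, B2 8.17 FPKM, C1 10.96 FPKM and C2 3.68 FPKM. The A libraries were alike, and pair C held both the highest and the lowest library of all 6. The C libraries had 138 and 27 reads, a ratio of 2.98 (95% counting interval 1.96 to 4.69). In B the ratio was 0.705 (0.495 to 1.001), an interval that just held 1. This point value was opposite in direction to that of Fmn2.

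**Figure D2:**
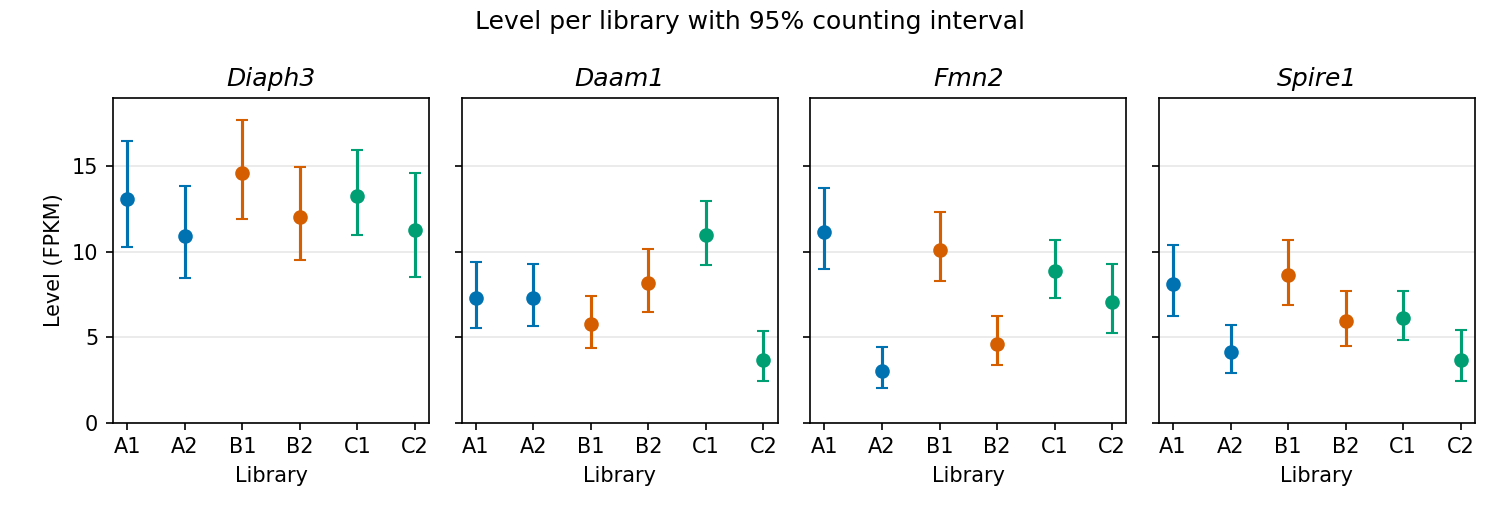
Level in FPKM of the 4 expressed genes in each library, with bars for the 95% counting interval (exact Poisson, counting error only). Diaph3 stays between 10.9 and 14.6 FPKM, whereas Fmn2 is low in A2 and B2 and Daam1 is high in C1 and low in C2.

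Start-site sequences are shown for Diaph3, the highest of the 8, Fmn2, the formin of the oocyte, and Diaph2, a close relative of Diaph3 with almost no reads. Each is the 250 bases before the RefSeq start (GRCm38.p6, the assembly of mm10), 5′ to 3′ on the strand of the gene, with CG dinucleotides in capitals. The windows are chr14:87141225-87141474 on the minus strand, chr1:174501575-174501824 on the plus strand and chrX:129749492-129749741 on the plus strand.
Diaph3: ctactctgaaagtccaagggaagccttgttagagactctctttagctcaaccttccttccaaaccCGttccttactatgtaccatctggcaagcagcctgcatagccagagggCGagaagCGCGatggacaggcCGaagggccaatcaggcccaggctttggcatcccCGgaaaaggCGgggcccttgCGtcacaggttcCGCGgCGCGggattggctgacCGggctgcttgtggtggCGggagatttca
Fmn2: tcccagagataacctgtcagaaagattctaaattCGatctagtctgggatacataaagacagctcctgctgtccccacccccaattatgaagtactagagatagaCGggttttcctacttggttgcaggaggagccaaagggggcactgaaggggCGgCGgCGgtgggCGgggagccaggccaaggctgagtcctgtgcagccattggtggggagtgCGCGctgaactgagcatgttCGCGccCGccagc
Diaph2: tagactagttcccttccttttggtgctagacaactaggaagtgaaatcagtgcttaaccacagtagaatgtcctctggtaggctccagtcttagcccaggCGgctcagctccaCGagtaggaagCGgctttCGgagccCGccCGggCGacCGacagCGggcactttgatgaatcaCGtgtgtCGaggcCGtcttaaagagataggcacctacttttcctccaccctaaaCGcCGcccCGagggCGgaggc

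These windows held 14 (Diaph3), 11 (Fmn2) and 16 (Diaph2) CG dinucleotides, where the median over 32851 RefSeq windows was 6 and 92.1% held at least 1. As many as in Diaph3 were found in 29.4% of all windows, as many as in Fmn2 in 35.6% and as many as in Diaph2 in 25.4%. Of the 8 genes 6 matched the table of start sites. Spire2, with 1 read in all, had 21 CG in its window, the most of the 6 genes. Fmn1 had 15 and 0 at its listed starts, and Daam1 had 9 and 4. The order of CG counts was therefore not the order of RNA levels. RNA-seq values per gene do not show which start was used.

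Spire1 was the only Spire gene clearly detected. It encodes a WH2-domain nucleator (ENSMUSG00000024533.16, minus strand of chromosome 18, 67488209 to 67610790). Spire1 stood at 8.11 FPKM in A1 against 4.15 FPKM in A2, at 8.65 FPKM in B1 against 5.93 FPKM in B2, and at 6.13 FPKM in C1 against 3.69 FPKM in C2. The A2 and C2 libraries were the lowest, and replicate 1 was above replicate 2 in each pair. The ratio of replicate 1 to replicate 2 was 1.96 (95% counting interval 1.28 to 3.03), 1.46 (1.03 to 2.09) and 1.66 (1.05 to 2.70) in A, B and C. All of these intervals lay above 1, but they too are too narrow where PCR made copies. Spire2, its paralogue (ENSMUSG00000010154.7, plus strand of chromosome 8, 123332713 to 123369515), had 1 read in C1 and 0 in the other 5 libraries. A count of 0 allows up to 3 reads, which is 0.945 to 1.32 FPKM in those libraries. Levels below that could not be told from 0 at this depth.

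The level of Fmn2 relative to its partner Spire1 varied between libraries in point values, for which no counting interval was computed. The ratio of their FPKM values was 1.38 in A1 against 0.732 in A2, 1.17 in B1 against 0.781 in B2, and 1.45 in C1 against 1.91 in C2. Fmn2 was the higher of the 2 in A1, B1, C1 and C2 and the lower in A2 and B2. Summed over the 8 genes, the level was 41.5 and 26.0 FPKM in A, 39.6 and 31.6 FPKM in B, and 40.9 and 26.5 FPKM in C. The sum was lowest in A2 and C2, the libraries that stood apart. Diaph3 made up 31.5% to 42.6% of the sum and Fmn2 11.7% to 26.9%.

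Diaph1, the diaphanous formin known as mDia1, was present in all 6 libraries but in few reads (ENSMUSG00000024456.16, minus strand of chromosome 18, 37843601 to 37935476). Its reads numbered 10 in A1, 4 in A2, 3 in each B library, 13 in C1 and 1 in C2. That corresponds to 1.58 and 0.564 FPKM in A, 0.374 and 0.396 FPKM in B, and 1.32 and 0.174 FPKM in C. Diaph2, known as mDia3 (ENSMUSG00000034480.18, plus strand of chromosome X, 129749742 to 130465834), had 1 and 0 reads in A, 0 and 6 in B, and 1 and 5 in C. Its reads therefore came mostly from B2 and C2, at 0.435 and 0.477 FPKM. Fmn1, a formin of limb and kidney development (ENSMUSG00000044042.18, plus strand of chromosome 2, 113327736 to 113716767), had 3 and 0 reads in A, 2 and 1 in B, and 0 and 2 in C. Fmn1 alone of the 8 shares exonic positions with other genes, Gm13963 and Gm13966 on the opposite strand, and strand handling is not given in the sources used here. For Fmn1 and Diaph2 a count of 0 allows 0.125 to 0.232 FPKM.

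In the annotated reading, C against B sets the mutant actin against normal actin. In the titled reading it sets non-injected embryos against R62D. None of the 4 genes that passed the filter (a mean of at least 1 FPKM) was called, and the intervals of the differences were wide. Mean Spire1 was 4.91 ± 1.72 FPKM for C beside 7.29 ± 1.93 FPKM for B (SD, n = 2). The log2 fold change was -0.50 ± 0.45 (SE), and it ran from -0.80 without C1 to -0.20 without C2. Its adjusted p was 1 (limma over all genes, Benjamini-Hochberg), and the 95% interval ran from 0.340-fold to 1.47-fold on the FPKM + 1 scale. Mean Fmn2 was 7.97 ± 1.29 FPKM for C beside 7.38 ± 3.89 FPKM for B, and its log2 fold change of 0.17 ± 0.60 (interval 0.426-fold to 2.99-fold) turned to -0.32 without B2. Diaph3 had a log2 fold change of -0.11 ± 0.33 (0.544-fold to 1.58-fold) and Daam1 one of -0.07 ± 0.50 (0.421-fold to 2.14-fold). Daam1 turned to 0.60 without C2 and to 0.15 without B2. Diaph3 came to 0.024 without B1 and to 0.001 without C2. Of the 4 log2 fold changes 1 was above 0, with a median of -0.09 where the median of all tested genes was 0. Called genes numbered 0 of the 4, beside 0% of all 13443 genes (limma). At an unadjusted p below 0.05 there were 0 of the 4, and 220 higher and 298 lower over all genes. With limma-voom, run on reads recovered from the FPKM values, 0 genes were called. The libraries of C and B overlapped for each of the 4 genes, and they did not overlap for 30.2% of all tested genes. With only 2 libraries per pair non-overlap often arises by chance. In this and the other comparisons 4 genes are too few to be told from such a share.

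C against A sets the mutant actin against no injection in the annotated reading. In the titled reading it sets the non-injected control against Wt. Again none of the 4 genes was called. Mean Fmn2 was 7.97 ± 1.29 FPKM for C beside 7.11 ± 5.76 FPKM for A (SD, n = 2). The log2 fold change was 0.35 ± 0.60 (SE). The adjusted p was 1 (limma), with an interval of 0.481-fold to 3.37-fold. This value became -0.45 without A2 and 1.15 without A1. Mean Spire1 was 6.13 ± 2.80 FPKM for A, and its log2 fold change of -0.24 ± 0.45 (0.406-fold to 1.76-fold) turned to 0.17 without A1 and to 0.058 without C2. Mean Diaph3 was 12.3 ± 1.41 FPKM for C beside 12.0 ± 1.54 FPKM for A, with a log2 fold change of 0.03 ± 0.33 (0.599-fold to 1.74-fold). It turned to -0.026 after median scaling, -0.028 after quantile normalization, -0.091 without A2 and -0.079 without C1. Mean Daam1 was 7.32 ± 5.15 FPKM for C beside 7.29 ± 0.0038 FPKM for A, with a log2 fold change of -0.15 ± 0.50 (0.40-fold to 2.03-fold). The latter was 0.53 without C2 and -0.83 without C1. Of the 4 values 2 were above 0, with a median of -0.06 beside 0.065 over all tested genes. Called genes numbered 0 of the 4 beside 0% of all genes (limma). Unadjusted p was below 0.05 for 0 of the 4 and over all genes for 225 higher and 180 lower, and limma-voom called 0. The pairs overlapped for each of the 4 genes and did not overlap for 26.9% of all tested genes.

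B against A sets normal actin against no injection in the annotated reading, and R62D against Wt in the titled one. None of the 4 genes was called here either. Spire1 had a log2 fold change of 0.26 ± 0.45 (SE, adjusted p = 0.991 in limma), with an interval of 0.574-fold to 2.48-fold, and came to -0.16 without A2. Mean Diaph3 was 13.3 ± 1.84 FPKM for B (SD, n = 2), and it had a log2 fold change of 0.14 ± 0.33 (0.645-fold to 1.88-fold). It was 0.006 without B1, 0.016 without A2, 0.26 without A1, 0.27 without B2, 0.037 after median scaling and 0.056 after quantile normalization. Fmn2 had one of 0.18 ± 0.60 (0.427-fold to 2.99-fold), which became -0.62 without A2, -0.32 without B1 and 0.97 without A1. Mean Daam1 was 6.96 ± 1.70 FPKM for B, with a log2 fold change of -0.07 ± 0.50 (0.421-fold to 2.14-fold) that was 0.15 without B1. Of the 4 values 3 were above 0, with a median of 0.16 beside 0.066 over all tested genes. Called genes numbered 0 of the 4 beside 0% of all genes (limma). Unadjusted p was below 0.05 for 0 of the 4 and over all genes for 373 higher and 241 lower, and limma-voom called 0. The libraries of B and A overlapped for each of the 4 genes and did not overlap for 31.7% of all tested genes. The 3 comparisons share libraries, and so are not independent of each other.

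**Figure D3:**
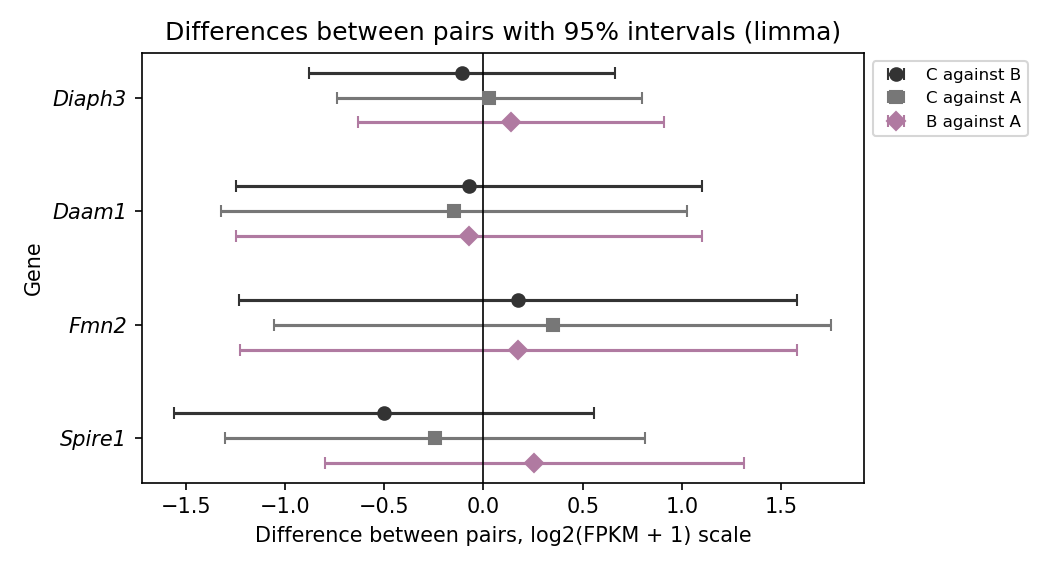
Difference between pairs on the log2(FPKM + 1) scale for the 4 tested genes in the 3 comparisons, with bars for the 95% interval of limma. Every interval spans 0, and Diaph3 has the narrowest, from 0.544-fold to 1.58-fold in C against B.

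The 4 genes with low levels did not pass the filter. Fitted without it, Diaph1 had a log2 fold change of 0.25 ± 0.49 in C against B, -0.28 ± 0.49 in C against A and -0.54 ± 0.49 in B against A (SE, limma). The adjusted p was 1, 1 and 0.92. On the log2(FPKM + 1) scale such low values leave little room for a difference. Diaph1 rested on 1 to 13 reads per library. For Diaph2, Fmn1 and Spire2 the fit called 0 in the 3 comparisons, as it called 0 of all 26934 genes in each.

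Replicate 1 was above replicate 2 in all 3 pairs for Diaph3, Fmn2 and Spire1, that is 3 of the 4 tested genes, as it was for 19.2% of all tested genes. Daam1 did not show this. Both A2 and C2 lay below the other 4 libraries for Diaph3 and Spire1, as they did for 15% of all tested genes. The medians of the oocyte and maternal list (-0.57 and -0.50), the 2-cell-stage list (-0.86 and -0.33) and the tested blood genes (-1.10 and -1.64) were also lowest in A2 and C2, so the lower levels there were not limited to oocyte genes. Fmn2 was low in A2 (-0.97 relative to its own mean, log2 scale), where the list median was -0.57. It was low as well in B2 (-0.49), where the list median was 0.11, and near its mean in C2 (0.03), where the list median was -0.50. Spire1 was at -0.42 in A2 and -0.55 in C2. The part of these library differences in the levels was not tested.

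**Figure D4:**
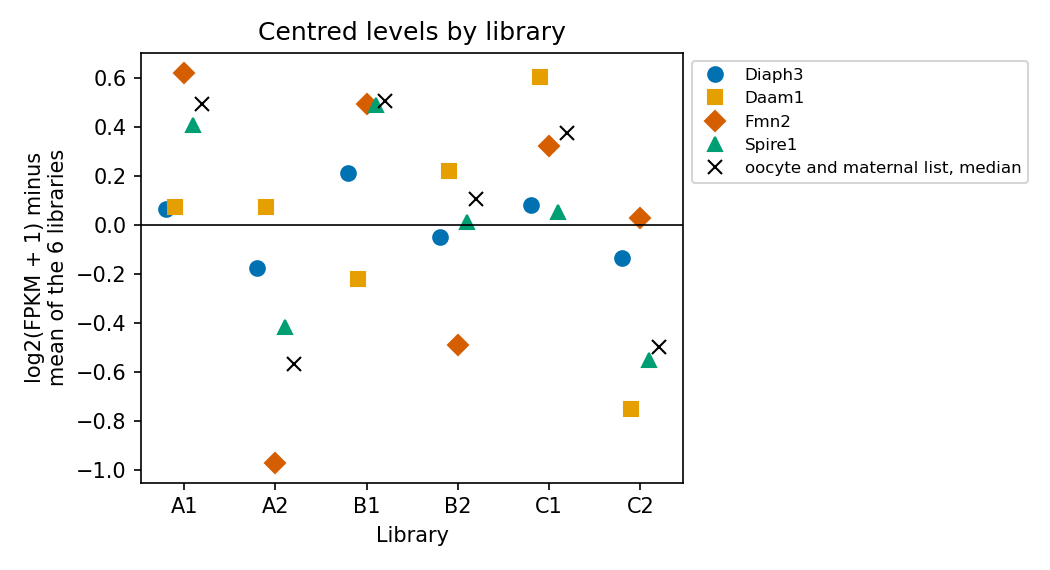
Level of the 4 tested genes and median of the oocyte and maternal list in each library, as log2(FPKM + 1) minus the mean of the 6 libraries. Spire1 and the list median are lowest in A2 and C2, while Fmn2 is lowest in A2 and B2 and Daam1 in C2.

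Other formins also lay on either side of the filter, although Fmnl2 was lower than the others that passed and overlapped Diaph1. Fhod3, a formin known from heart muscle, reached the level of Diaph3, with 12.8 and 8.60 FPKM in A, 11.4 and 11.3 FPKM in B, and 20.1 and 11.6 FPKM in C. Fmnl3 measured 4.17 to 6.97 FPKM and Fmnl2 1.19 to 3.91 FPKM. Of the 9 other formins the remaining 6 had 0 to 6 reads in all 6 libraries together, with Daam2 and Fhdc1 at 0. So 6 of all 15 formins (Fhod3, Diaph3, Fmn2, Daam1, Fmnl3 and Fmnl2) passed the filter. The 3 tested among the others had median log2 fold changes of 0.30 in C against B, -0.19 in C against A and -0.23 in B against A, and 0 passed the test. The log2 fold change of Fhod3 was 0.40 ± 0.39 when C was set against B, and 0.51 ± 0.39 against A (SE, adjusted p = 1 each, limma).

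Partners of these nucleators and other nucleation factors were mostly present. Some products of the Rab11 and myosin V genes carry Spire and Fmn2 on vesicles in oocytes. Of the 10 genes in this list 6 were tested and 0 passed in any comparison. Rab11a measured 51.4 FPKM and Myo5b 4.39 FPKM on average. Of 4 profilins, which supply actin to formins, 3 were tested and 0 passed, with Pfn1 at 11.4 FPKM and Pfn4 at 4.95 FPKM. Of 12 other WH2-domain nucleators and promoting factors 6 were tested and 0 passed. Wasl, the activator of the Arp2/3 complex known as N-WASP, had a mean of 30.9 FPKM and Jmy 7.98 FPKM. The largest of these differences was a log2 fold change of 0.62 ± 0.41 (SE) for Wasl in B against A, with an adjusted p of 0.991 (limma). Over these 3 lists, the other formins and the 3 comparisons, unadjusted p fell below 0.05 for 0 genes.

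The profile of Diaph3, the highest of the 8, was compared with those of 7085 other genes whose mean reached 5 FPKM. The measure was the root mean square difference of centred log2(FPKM + 1) values over the 6 libraries, which favours genes that vary little. The 5 closest were Polr1c (0.029), Ccdc47 (0.059), Ppp1r7 (0.063), Eif2a (0.075) and Psmc4 (0.078). Polr1c, a subunit of RNA polymerases I and III, varied from 105 to 135 FPKM.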

How the data were processed

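RNA-seq was measured in pools of 5 embryos. Per the labels' protocols, ERCC spike-in RNA was added to the lysate and cDNA was amplified with 13 PCR cycles before tagmentation. Per the submitters' processing notes the programs were Trimmomatic, Trim Galore, cutadapt, STAR and featureCounts on build mm10. No version, annotation or strand setting is named in the labels. The deposited values are FPKM computed by the authors, in a table with 0 spike-in rows. FPKM times the deposited gene length gave reads up to 1 factor per library, taken from the commonest product, and 55.6% to 57.9% of values above 0 were whole reads (tolerance 0.001 read) and the rest were fractions.

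Groups follow the sample titles. The filter kept 13443 genes whose mean reached 1 FPKM, and log2(FPKM + 1) was analysed. All 6 libraries entered a single limma fit (version 3.58.1, R 4.3.3) that has 1 mean for each pair, a trend in the variance and Benjamini-Hochberg adjustment (threshold 0.05, two-sided). Fold changes on this scale understate those of low genes. On simulated data, in C against B, the fit returned the size put in, after allowance for the fall in FPKM as C libraries grew. It called few or none of the several-fold changes, of which limma-voom called most, and it made some calls among unchanged genes. The simulation gave every gene the same spread beyond counting error. It held no PCR copies and no deviating libraries such as A2 and C2, so it does not show how many changes limma-voom would call here. The absence of a call in either fit therefore does not show that a gene did not change. Intervals and the floor of 3 reads for a count of 0 describe counting error alone, because no molecular identifiers marked PCR copies. The genes named are all 8 members, the 2 highest genes of each pathway list (1 list is not reported here), any list gene with an unadjusted p below 0.05, and the 5 genes most like Diaph3. Fmnl2 and Polr1c's range were singled out after the values were seen. Members and lists were chosen with earlier results of these data known. The 15 alternatives were other pseudocounts, filters, scalings and fits, the replicate block, limma-voom and leaving out each library.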

Additional observations from a re-analysis of the deposited data

How the results depend on the processing

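None of the 12 log2 fold changes of Diaph3, Daam1, Fmn2 and Spire1 passed under any of the 15 alternatives (180 values, limma, smallest adjusted p = 0.863, smallest unadjusted p = 0.107). Direction was kept in 163 of the 180, and 17 turned, 15 of them on leaving out a library. The ranges over left-out libraries in C against B were -0.24 to 0.024 for Diaph3 (turned without B1 and without C2), -0.80 to -0.20 for Spire1, -0.75 to 0.60 for Daam1 (without B2 and without C2) and -0.32 to 0.67 for Fmn2 (without B2). In C against A they were -0.091 to 0.15 for Diaph3 (without A2 and without C1), -0.83 to 0.53 for Daam1 (without C2), -0.45 to 1.15 for Fmn2 (without A2) and -0.66 to 0.17 for Spire1 (without A1 and without C2). In B against A they were 0.006 to 0.27 for Diaph3, -0.29 to 0.15 for Daam1 (without B1), -0.62 to 0.97 for Fmn2 (without A2 and without B1) and -0.16 to 0.67 for Spire1 (without A2). A pair left with 1 library was assumed to vary like the others. Diaph3 in C against A became -0.026 after median scaling and -0.028 after quantile normalization. The count of called genes stayed at 0 in each comparison, except for 1 gene in C against B with a pseudocount of 0.1. This was an immunoglobulin kappa variable gene with 10 reads in each B library and 0 in both C libraries (adjusted p = 0.0342, limma). It had 9 reads in A1 and 4 in A2. Deviations of same-numbered libraries correlated at 0.098 (A and B), 0.20 (A and C) and 0.005 (B and C). Weak correlations of this kind cannot show whether same-numbered pools were prepared together, and the main fit assumed no such pairing. With the replicate block 0 genes were called in each comparison, and the value for Spire1 in C against B was -0.50. With 1 library of each number in each pair, the block cannot move a fold change, only its error. Values of Diaph1, Diaph2, Fmn1 and Spire2 rest on 1 to 34 reads in all, which limits their precision.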
